A study of Homo sapiens with 6 samples.

Results

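The genes that license and copy DNA were followed in MG63 cells after knockdown of FUBP1. The set held 50 protein-coding genes, taken by gene symbol from a table of 58735 genes. The rule uses no measured value, but the set was proposed with earlier results of these data known. All 50 passed the filter on low counts and were among the 16116 genes tested. RNA was sequenced 48 h after transfection with an siRNA against FUBP1 (siFUBP1, 3 samples) or with a negative control (siMock, 3 samples). MG63 is an established human osteosarcoma line, and an siRNA is a short RNA duplex that directs cleavage of a matching mRNA. FUBP1 encodes a DNA- and RNA-binding protein known for its control of MYC transcription. Both groups came from the same line, and the labels name no other treatment. The sources used here do not give which of the study's FUBP1 siRNAs was sequenced, nor whether the 3 samples of a group were separate cultures, so p-values measure only the spread between these samples, which may be technical.

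Before a cell copies its genome, the origin recognition complex (ORC), CDC6 and CDT1 load rings of MCM2 to MCM7 onto DNA in G1 phase, a step called licensing. In S phase the kinase CDC7 with its activator DBF4, together with cyclin-dependent kinase, converts the loaded ring into an active helicase with CDC45 and the GINS complex. Polymerase alpha-primase starts each strand, polymerases epsilon and delta extend it behind the clamp PCNA, and FEN1 and LIG1 join the fragments of the lagging strand. Many of these genes are known targets of E2F transcription factors, which are released from RB-family proteins as cells enter S phase.

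Sequencing depth was even, at 16309900 to 17484313 counted reads in siMock and 16499842 to 17073410 in siFUBP1. FUBP1 stood at 255 ± 18.5 CPM (reads scaled to a common sequencing depth, SD) in siMock and 46.9 ± 5.33 CPM in siFUBP1, which left 18.4% of the control level. The cell line was checked against its markers. COL1A1 was read at 108 to 118 CPM in siMock and at 45.4 to 45.7 CPM in siFUBP1, and VIM was at 141 to 214 CPM, whereas COL1A2 had 0 reads in every sample (a count of 0 allows up to 0.192 CPM in the shallowest sample, for counting error only), and SPARC, ALPL and SP7 had at most 5 reads. Several defining osteoblast markers were therefore at or near 0 in cells labelled as osteosarcoma, BGLAP with 2 to 13 reads among them. RUNX2, the osteoblast transcription factor, had 6 to 8 reads in siMock and 39 to 97 in siFUBP1. The 9 markers of epithelial, blood and endothelial cells had at most 83 reads each, with at most 2 of PTPRC and 0 of CD3E.

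The replication genes were lower more often than higher in siFUBP1. Of the 50 members, 25 were lower and 10 were higher at an adjusted p below 0.05 (edgeR's quasi-likelihood test, Benjamini-Hochberg over all tested genes), and 15 were not called. The lower calls were 50% of the members, against 30.1% of all tested genes, and the higher calls were 20%, against 30.1% of all tested genes. In either direction 60.2% of all tested genes were called, so a call alone was common in this experiment. The median log2 fold change of the members was -0.21, beside 0.002 over all tested genes. The members together made up 0.488% to 0.493% of the counted reads in siMock and 0.385% to 0.395% in siFUBP1. Their summed level was 5101, 5022 and 5109 CPM in the siMock samples and 3808, 3661 and 3861 CPM in the siFUBP1 samples, or 74.4% of the control. In bulk RNA, fewer cells in S phase and less of these RNAs in each cell cannot be told apart.

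The individual changes were moderate. Only CDC6 and POLE2 passed both the adjusted p and a log2 fold change below -1, and no member passed it upwards, whereas 9.13% of all tested genes were lower, 8.16% were higher and 17.3% were called in either direction by that rule. The 3 siFUBP1 samples lay wholly below the 3 siMock samples for 27 members and wholly above them for 13, against 31.7% and 32.2% of all tested genes. In total the groups did not overlap for 40 members, or 80%, against 63.9% of all tested genes. All 35 called members were among these, and the other 5 were RFC1 and RPA1 on the lower side and ORC3, GINS4 and RFC2 on the higher side. The count of lower members past the fold threshold was 4 without the first siMock sample, 0 without the third and 1 without the second siFUBP1 sample. These counts moved because CDC6, POLE2, POLE and RFC5 all lie close to the threshold, at -1.02, -1.003, -0.98 and -0.98.

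**Figure D1:**
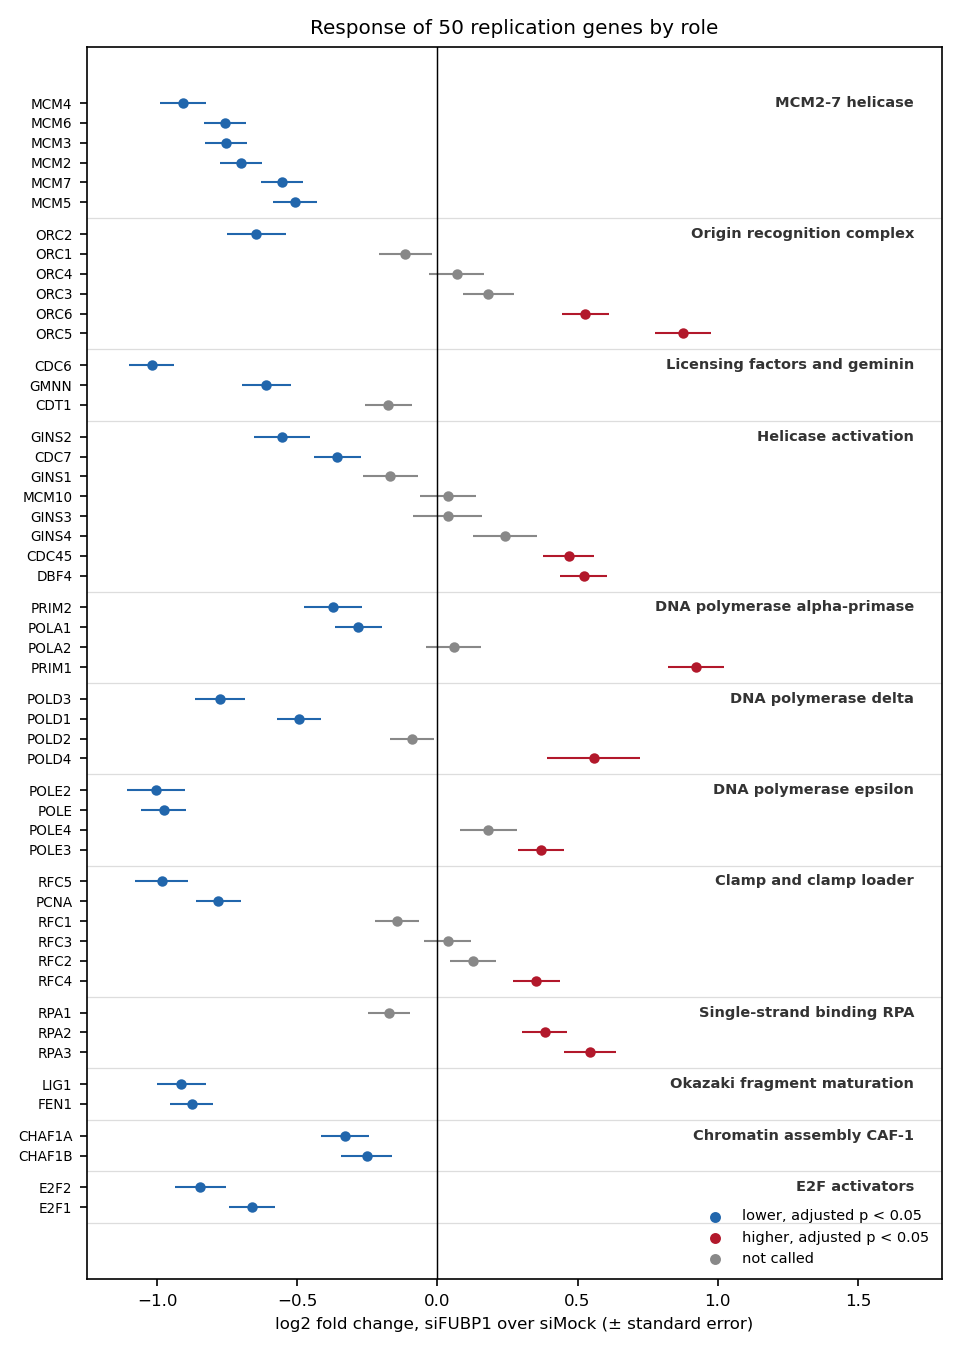
Log2 fold change of siFUBP1 over siMock (x axis) for the 50 members, grouped by role, with points at the fitted value and bars for its standard error (n = 3 samples per group). Blue points were lower, red points higher and grey points not called; all 6 MCM2-7 genes lie between -0.91 and -0.51, while the ORC, polymerase and clamp loader groups hold both colours.

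Promoter sequences were examined for the words bound by E2F, since many members are known E2F targets. For the same reason their share of such words is not independent of the choice of the set, although that choice did not use sequence. The RefSeq windows of GRCh38.p14, from 250 bases before to 50 after the gene start, were matched for 44 of the 50 members. MCM4, MCM5, GINS4, POLD3, RPA2 and RPA3 had no entry. The words searched on both strands were TTTCCCGC, TTTCGCGC, TTTGCCGC and TTTGGCGC, which can overlap one another on opposite strands. A match is a description of letters, not a site shown to be bound. Only exact words were counted, so a promoter without one may still hold an E2F site of another spelling. At least 1 such word stood in 20 of the 44 member promoters (45.5%) and in 4.38% of 14896 protein-coding promoters of the same length. Among the 9995 tested genes with a promoter window it was 5.35%. The word CCAAT, the core of NF-Y sites, stood in 24 of the 44 (54.5%) against 36.4%. The words TTTGAA and TTCGAA, which form the CHR element of many mitotic genes, stood in 2 of the 44 (4.55%) against 13.3%.

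Windows of some members with a word, GINS2 and POLA1 (both lower) among them, are not printed. The windows below are a selection from the members with a word. Each has 1 E2F-type word, or overlapping words, in capitals with 9 bases on each side, 5′ to 3′ on the strand of the gene. MCM3, MCM7 and E2F1 each hold another word, not printed here, which begins 174, 187 and 33 bases before the gene start. The last bases of the other E2F1 word fall in the lower-case flank of its window. The first 10 belong to genes that were lower in siFUBP1, and the last 4, of ORC3, CDT1, RFC3 and POLE4, to genes that were not called.
MCM2: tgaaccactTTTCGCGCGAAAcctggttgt (chr3:127598404-127598433, plus strand)
MCM3: ttcggaagtTTTCGCGCcggggtgga (chr6:52284730-52284755, minus strand)
MCM7: ggggcgacgTTTCGCGCcaatttcgg (chr7:100101390-100101415, minus strand)
CDC6: ccattcggaTTTGGCGCgagcgcggc (chr17:40287877-40287902, plus strand)
PCNA: gcgtcagggGCGGGAAAaggcgtgcg (chr20:5126665-5126690, minus strand)
POLE: ggtgggagcGCGCCAAAtttctcccc (chr12:132687344-132687369, minus strand)
POLE2: gcggcggtgGCGCCAAAtcgcaaata (chr14:49688203-49688228, minus strand)
LIG1: ttcacccctTTTCCCGCcctcctccc (chr19:48170442-48170467, minus strand)
E2F1: caaaaaggaTTTGGCGCgtaaaagtg (chr20:33686389-33686414, minus strand)
E2F2: ggcacgacgTTTGGCGCtaaaaaaaa (chr1:23531259-23531284, minus strand)
ORC3: cgagggcgcGCGGGAAAtcccgagtg (chr6:87590114-87590139, plus strand)
CDT1: agggcgcccGCGGGAAAtttggcggg (chr16:88803745-88803770, plus strand)
RFC3: ttggagctcGCGGGAAAacttgtctc (chr13:33818085-33818110, plus strand)
POLE4: ccagcccgcGCGGGAAAgggcctgcg (chr2:74958603-74958628, plus strand)

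MCM6 held the most E2F-type words of any member, 4 in 2 elements that each join words read on opposite strands and whose first bases lie 152 and 90 bases before the gene start. The 250 bases before its start are given to show their spacing.
MCM6: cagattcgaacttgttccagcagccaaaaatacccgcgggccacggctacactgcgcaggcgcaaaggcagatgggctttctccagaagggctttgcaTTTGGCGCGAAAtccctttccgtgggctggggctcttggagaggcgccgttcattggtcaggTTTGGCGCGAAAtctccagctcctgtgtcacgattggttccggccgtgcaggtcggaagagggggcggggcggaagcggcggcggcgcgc (chr2:135876444-135876693, minus strand)

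Members with and without an E2F-type word were then set side by side, as a description without a test. Of the 20 members with a word, 13 were lower, 0 were higher and 7 were not called, with a median log2 fold change of -0.61 and a range of -1.02 to 0.18. Of the 24 members with a promoter window and no word, 9 were lower, 8 were higher and 7 were not called, with a median of -0.10. The 6 members with no entry had 3 lower and 2 higher. Of the 10 higher members, 8 therefore lacked a word, and 2, RPA2 and RPA3, had no entry to search. The 9 lower members with no word included RFC5 (-0.98), FEN1 (-0.88), ORC2 (-0.65) and GMNN (-0.61). Outside the set, 515 tested genes carried a word, and 181 of these were lower and 149 higher, with a median of -0.05. Of the 9436 other tested genes with no word, 3183 were lower and 2998 higher, with a median of -0.01. Among all tested genes, 30.1% were called in each direction.

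**Figure D2:**
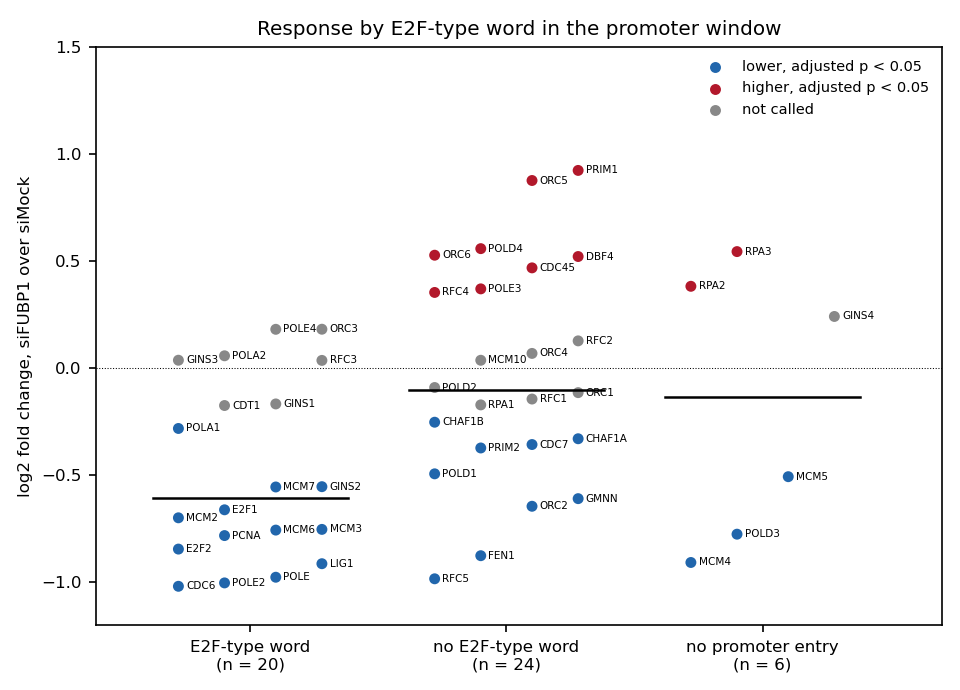
Log2 fold change of siFUBP1 over siMock (y axis) for members with an E2F-type word in the promoter window, without one, and with no promoter entry; each point is a gene, and black lines are medians (-0.61, -0.10 and -0.13). No red point stands in the left column, where 13 of 20 genes are blue.

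The MCM2-7 helicase is the ring that unwinds DNA at the fork, and all 6 of its genes were lower in siFUBP1. Their summed level was 1877, 1897 and 1871 CPM in siMock and 1175, 1151 and 1192 CPM in siFUBP1, or 62.3% of the control. MCM4 stood at 307, 312 and 309 CPM in siMock and at 167, 145 and 182 CPM in siFUBP1. There was no overlap between groups, and the log2 fold change was -0.91 (SE 0.0824, adjusted p = 5.02e-10). MCM6 (chr2:135839626-135876426, gene positions from GENCODE release 29 on GRCh38) was read at 186, 179 and 196 CPM in siMock and at 109, 110 and 112 CPM in siFUBP1. Every siFUBP1 sample was lower than every siMock sample, and the log2 fold change was -0.76 (SE 0.0748, adjusted p = 2.38e-09). MCM3 (chr6:52264009-52284881) stood at 318, 304 and 320 CPM against 182, 183 and 194 CPM. The groups were again apart, at a log2 fold change of -0.75 (SE 0.0749, adjusted p = 2.62e-09). MCM2 (chr3:127598223-127622436) stood at 356, 372 and 352 CPM against 224, 216 and 225 CPM, a log2 fold change of -0.70 (SE 0.0746, adjusted p = 9.50e-09). MCM2 shares 1158 exonic bases with genes on the opposite strand, and whether counting used the strand is not given in the sources used here.

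MCM7, the most highly counted member of all 50, stood at 491, 503 and 496 CPM in siMock and at 344, 336 and 334 CPM in siFUBP1. The siMock and siFUBP1 samples did not overlap, and the log2 fold change was -0.56 (SE 0.0747, adjusted p = 4.58e-07). MCM5 was lower as well, from 215 ± 14.2 to 151 ± 8.21 CPM (SD), a log2 fold change of -0.51 (SE 0.078, adjusted p = 3.51e-06), and the estimate was -0.29 when GC content and length were corrected for. The same correction gave -0.50 for MCM2, -0.78 for MCM3, -0.87 for MCM4, -0.89 for MCM6 and -0.39 for MCM7. The order of levels per length was the same in both groups: MCM7 led at 112 ± 1.58 FPKM (fragments per kilobase of gene length, scaled for depth, SD) in siMock and 76.6 ± 1.22 FPKM in siFUBP1, followed by MCM3, MCM2, MCM6, MCM4 and MCM5. MCM6 and MCM4 were neighbours that did not differ beyond their spread in siMock, at 44.8 ± 1.90 and 43.8 ± 0.469 FPKM.

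**Figure D3:**
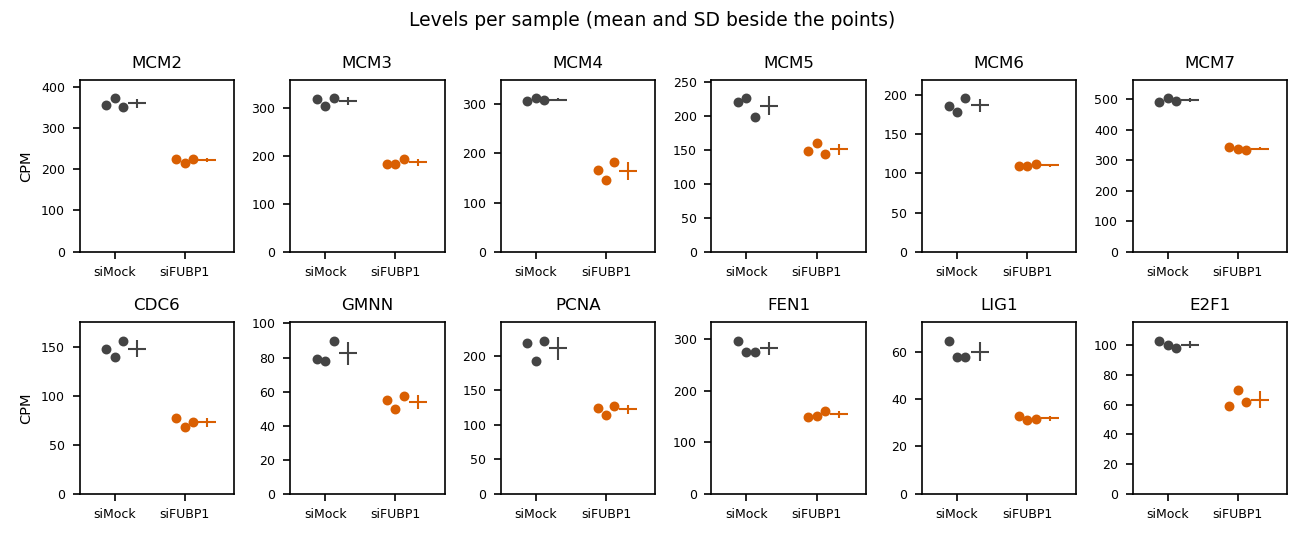
Level per sample in CPM (y axis, from 0) of the 6 MCM2-7 genes, CDC6, GMNN, PCNA, FEN1, LIG1 and E2F1 in 3 siMock (grey) and 3 siFUBP1 (orange) samples, with the mean and SD beside the points. In every panel the 3 orange points lie below the 3 grey points.

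The loading factors changed unequally. CDC6 (chr17:40287633-40304657), the ATPase that brings the MCM ring to ORC, stood at 148, 139 and 156 CPM in siMock and at 77.4, 68.2 and 73.3 CPM in siFUBP1. The siFUBP1 samples averaged 49.3% of the control and did not overlap with it, a log2 fold change of -1.02 (SE 0.0797, adjusted p = 3.13e-11). Geminin (GMNN, chr6:24774931-24786099), the inhibitor that binds CDT1 and blocks relicensing, was read at 79.1, 78.2 and 89.9 CPM in siMock and at 55.2, 49.6 and 57.2 CPM in siFUBP1. The groups did not overlap, and its log2 fold change was -0.61 (SE 0.0859, adjusted p = 9.32e-07). CDT1, which loads the ring together with CDC6, was at 138, 121 and 107 CPM against 107, 110 and 107 CPM. Its groups overlapped, and it was not called (log2 fold change -0.17, SE 0.0842, adjusted p = 0.0761). The CDT1 estimate depended on the setting: it took the opposite sign, 0.12, after correction for GC content and length, was -0.09 without the first siMock sample, and was called lower without the third (-0.26, adjusted p = 0.00778) and with the replicate number as a block (adjusted p = 0.0386).

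The origin recognition complex was split. ORC2 (chr2:200908973-200963680) stood at 32.2, 32 and 38.4 CPM in siMock and at 21.3, 19.7 and 24.6 CPM in siFUBP1. All siFUBP1 samples were below the controls, and the log2 fold change was -0.65 (SE 0.106, adjusted p = 8.52e-06). ORC5 (chr7:104126341-104208047) went the other way, from 22.1, 24.0 and 25.9 CPM to 48.7, 43.5 and 39.9 CPM. Every siFUBP1 value exceeded every control value, a log2 fold change of 0.88 (SE 0.099, adjusted p = 2.50e-08). ORC6 was also higher, at 38.8 ± 1.08 CPM in siMock and 56.0 ± 1.22 CPM in siFUBP1 (SD; log2 fold change 0.53, SE 0.0845, adjusted p = 6.26e-06). ORC1, the subunit best known to follow the cell cycle, was at 61.5, 60.4 and 65.4 CPM against 57.7, 48.8 and 66.4 CPM, with overlapping groups and no call (log2 fold change -0.11, adjusted p = 0.310), although it was called lower without the third siFUBP1 sample (-0.23, adjusted p = 0.0473). ORC3 and ORC4 were not called either, at 0.18 and 0.07 on the log2 scale. The summed ORC level was 112% of the control in CPM.

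Helicase activation showed the same mixture. DBF4, the activating subunit of the kinase CDC7, was at 49.8, 50.9 and 54.6 CPM in siMock and at 71.2, 70.9 and 80.8 CPM in siFUBP1. It was higher in all 3 siFUBP1 samples, with a log2 fold change of 0.52 (SE 0.0846, adjusted p = 7.50e-06). CDC7 itself was lower, from 64.7 ± 3.39 to 50.5 ± 2.96 CPM (SD; log2 fold change -0.36, SE 0.0843, adjusted p = 6.95e-04), and its estimate was -0.55 after the GC and length correction. CDC45, which rides with the helicase, was higher, from 33.3 ± 2.60 to 46.1 ± 0.715 CPM (SD; log2 fold change 0.47, SE 0.0899, adjusted p = 6.88e-05). GINS2, a subunit of the GINS complex, was lower, from 36.5 ± 0.849 to 24.8 ± 3.06 CPM (SD; log2 fold change -0.55, SE 0.0996, adjusted p = 3.01e-05). GINS1, GINS3, GINS4 and MCM10 were not called, with log2 fold changes of -0.17, 0.04, 0.24 and 0.04. GINS1 was called lower after the GC and length correction (-0.33, adjusted p = 0.00162) and without the third siFUBP1 sample (-0.29, adjusted p = 0.0143). GINS4 was called higher without the second siFUBP1 sample (0.31, adjusted p = 0.0399). Of the 8 genes in this group, 2 were thus lower and 2 higher, or 25% each, beside 30.1% of all tested genes in each direction. With the correction 3 were lower and 2 higher, beside 29.9% and 32.1% of all tested genes.

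Polymerase alpha-primase makes the primer of each new strand. PRIM1 (chr12:56731596-56752373), the catalytic subunit of primase, stood at 19.6, 17.5 and 19.7 CPM in siMock and at 33.0, 38.7 and 35.8 CPM in siFUBP1. The groups were far apart, at a log2 fold change of 0.92 (SE 0.1, adjusted p = 1.31e-08), although PRIM1 shares 527 exonic bases with other genes. PRIM2, the regulatory primase subunit, was lower, from 50.9 ± 0.740 to 39.3 ± 7.06 CPM (SD; log2 fold change -0.37, SE 0.104, adjusted p = 0.00326), and the estimate was -0.23 without the second siFUBP1 sample. POLA1, the polymerase subunit, was at 110, 125 and 135 CPM against 105, 93.6 and 106 CPM. These values were closer, and the log2 fold change of -0.28 (SE 0.0842, adjusted p = 0.00541) was no longer called when samples were scaled by library size alone. POLA2 was not called, at 0.06.

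Polymerase epsilon, the leading-strand enzyme, had its catalytic subunit and POLE2 reduced. POLE (chr12:132623753-132687365) stood at 190, 218 and 221 CPM in siMock and at 110, 98.2 and 111 CPM in siFUBP1. All siFUBP1 samples lay far below the controls, at a log2 fold change of -0.98 (SE 0.0818, adjusted p = 1.14e-10). POLE2 (chr14:49643555-49688422) was read at 28.7, 28.2 and 31.3 CPM against 14.4, 15.0 and 14.5 CPM. The siFUBP1 samples were at 49.9% of the control, a log2 fold change of -1.003 (SE 0.103, adjusted p = 4.52e-09). The histone-fold subunit POLE3 was higher instead, from 67.1 ± 5.20 to 86.8 ± 4.56 CPM (SD; log2 fold change 0.37, SE 0.0826, adjusted p = 3.88e-04), and 0.21 after the GC and length correction. POLE4, its partner, was not called, at 0.18, but was called higher without the first siMock sample (0.27, adjusted p = 0.0383). The order per length changed within the complex, since POLE was above POLE4 in siMock (12.5 ± 1.03 against 12.3 ± 1.32 FPKM, within their spread) and below it in siFUBP1 (6.38 ± 0.414 against 14 ± 1.2 FPKM, SD).

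Polymerase delta extends mainly the lagging strand. POLD3 (chr11:74493851-74669117), an accessory subunit, was at 71.5, 77.1 and 84.9 CPM in siMock and at 45.4, 42.0 and 49.0 CPM in siFUBP1. The groups did not overlap, and the log2 fold change was -0.78 (SE 0.0886, adjusted p = 3.01e-08). POLD2 was the most counted subunit, at 219, 206 and 198 CPM against 208, 185 and 193 CPM, with overlapping groups and no call (log2 fold change -0.09, adjusted p = 0.322). POLD1, the catalytic subunit, was lower, from 115 ± 8.89 to 82.0 ± 2.94 CPM (SD; log2 fold change -0.49, SE 0.0795, adjusted p = 6.68e-06). The POLD1 call was lost after the GC and length correction, where the estimate was -0.13 (adjusted p = 0.0925). POLD4, the smallest subunit, was higher but weakly expressed, with 88 to 118 reads in siMock and 133 to 165 in siFUBP1 (log2 fold change 0.56, SE 0.166, adjusted p = 0.00511), and it shares 650 exonic bases with another gene on its strand.

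PCNA (chr20:5114953-5126626), the sliding clamp that holds the polymerase on DNA, stood at 219, 192 and 222 CPM in siMock and at 125, 115 and 128 CPM in siFUBP1. Each siFUBP1 sample was lower than each control, at a log2 fold change of -0.78 (SE 0.0801, adjusted p = 4.59e-09). Its annotated pseudogenes PCNAP1, PCNAP3 and PCNAP4 could share its reads. RFC5 (chr12:118013588-118033130), a subunit of the loader that opens the clamp, was at 65.7, 63.9 and 72.5 CPM against 35.5, 29.8 and 36.8 CPM. It was reduced to 50.6% of the control (log2 fold change -0.98, SE 0.0934, adjusted p = 1.16e-09). RFC4 was higher, from 51.5 ± 4.28 to 65.8 ± 2.41 CPM (SD; log2 fold change 0.35, SE 0.0855, adjusted p = 8.76e-04), and 0.21 after the GC and length correction. RFC1, RFC2 and RFC3 were not called, at -0.14, 0.13 and 0.04. The GC and length correction called RFC1 (-0.22, adjusted p = 0.00332) and RFC3 (-0.20, adjusted p = 0.0206) lower, which made 4 of the 6 clamp and clamp loader genes lower and 1 higher. With that correction 29.9% of all tested genes were lower and 32.1% were higher.

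Replication protein A coats single-stranded DNA at the fork. RPA1, its large subunit, was at 143, 143 and 144 CPM in siMock and at 128, 120 and 134 CPM in siFUBP1. The groups were apart by a small step, and the log2 fold change of -0.17 (SE 0.075) was not called at an adjusted p of 0.0505. It was called lower in 6 of the alternatives, among them DESeq2 (adjusted p = 0.0404) and the omission of the third siFUBP1 sample (-0.21, adjusted p = 0.0351). The other two subunits were higher: RPA2 went from 52.5 ± 1.47 to 68.5 ± 2.86 CPM (SD; log2 fold change 0.38, SE 0.0814, adjusted p = 2.32e-04) and RPA3 from 46.9 ± 2.57 to 68.4 ± 8.70 CPM (SD; log2 fold change 0.54, SE 0.0924, adjusted p = 1.41e-05). The RPA2 estimate was 0.23 after the GC and length correction. Per length, RPA1 and RPA2 were level in siMock, at 25.8 ± 0.0815 and 25.7 ± 0.657 FPKM, and RPA2 led in siFUBP1, at 33.7 ± 1.4 against 23.1 ± 1.18 FPKM (SD).

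The genes that finish the lagging strand were both reduced. FEN1 (chr11:61792637-61797244), the flap endonuclease, was at 297, 275 and 275 CPM in siMock and at 150, 151 and 161 CPM in siFUBP1. No sample crossed between groups, and the log2 fold change was -0.88 (SE 0.076, adjusted p = 2.23e-10). LIG1 (chr19:48115445-48170603), the DNA ligase that seals the fragments, was at 64.6, 57.6 and 57.6 CPM against 32.9, 31.1 and 31.5 CPM. The siFUBP1 samples clustered tightly at 53.1% of the control (log2 fold change -0.91, SE 0.0882, adjusted p = 1.57e-09). Together these genes stood at 54.2% of their control CPM, the lowest of the 12 role groups.

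Chromatin assembly factor CAF-1 places histones on new DNA, and both of its subunits in the set were modestly lower. Its further subunit RBBP4, which is not a member, was lower at -0.47 (adjusted p = 1.71e-05). CHAF1A was at 72.3, 74.3 and 64.7 CPM in siMock and at 54.1, 60.3 and 53.8 CPM in siFUBP1. The groups did not overlap, at a log2 fold change of -0.33 (SE 0.0852, adjusted p = 0.00162), which was -0.16 after the GC and length correction. CHAF1B was lower at -0.25 (SE 0.0914, adjusted p = 0.0193), from 38.9 ± 2.05 to 32.7 ± 1.96 CPM (SD), and this call was lost in 6 of the alternatives tried, 3 of them with a sample left out.

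E2F1 and E2F2, the E2F activators in the set, drive transcription of S-phase genes and were lower too. The activator E2F3, which is not a member, was called higher at 0.21 (adjusted p = 0.0378), with overlapping groups. E2F1 (chr20:33675683-33686404) was at 103, 100 and 97.9 CPM in siMock and at 58.9, 69.9 and 61.5 CPM in siFUBP1. The groups were well separated, at a log2 fold change of -0.66 (SE 0.082, adjusted p = 1.18e-07). E2F2 (chr1:23506430-23531220) was at 47.4, 51.4 and 44.3 CPM against 27.7, 26.6 and 25.4 CPM. Its siFUBP1 samples were at 55.7% of the control (log2 fold change -0.85, SE 0.0924, adjusted p = 1.42e-08). The promoter windows of both genes, printed above, carry E2F-type words.

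Several complexes thus had subunits that moved apart, and the balance within them was followed as the ratio of 2 FPKM values in each sample, for 10 pairs chosen after their values were seen. POLE over POLE3 was 0.493 ± 0.0686 in siMock and 0.193 ± 0.0226 in siFUBP1 (SD, n = 3). RFC5 over RFC4 went from 1.21 ± 0.0693 to 0.477 ± 0.0414. CDC7 over DBF4 went from 1.61 ± 0.0699 to 0.876 ± 0.0153, so the kinase was above its activator in siMock and below it in siFUBP1. PRIM2 over PRIM1 turned likewise, from 1.41 ± 0.0812 to 0.579 ± 0.134. ORC2 over ORC5 went from 0.910 ± 0.0515 to 0.320 ± 0.0634. CDT1 over its inhibitor GMNN moved upwards, from 1.11 ± 0.205 to 1.49 ± 0.136. These pairs were picked for moving apart, so the ratios are a description and carry no test.

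**Figure D4:**
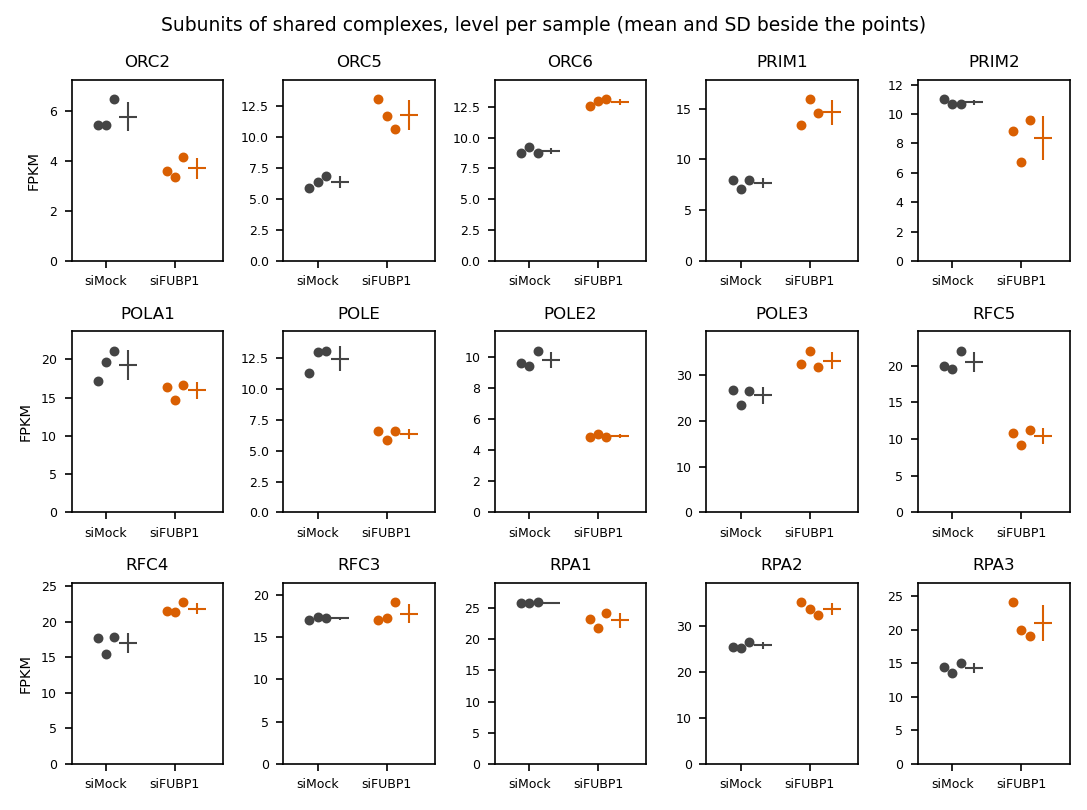
FPKM per sample (y axis, from 0) of 15 subunits of ORC, polymerase alpha-primase, polymerase epsilon, the clamp loader and RPA in 3 siMock (grey) and 3 siFUBP1 (orange) samples, with the mean and SD beside the points. ORC2, PRIM2, POLA1, POLE, POLE2, RFC5 and RPA1 (not called) lie lower in siFUBP1. ORC5, ORC6, PRIM1, POLE3, RFC4, RPA2 and RPA3 lie higher, and the RFC3 groups overlap.

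Some technical features were set beside the members' changes. Across the 50 members the log2 fold change had a Pearson correlation of -0.23 with GC content, -0.27 with log2 gene length and -0.47 with the mean log2 level, given as descriptions over genes that share the same 6 libraries. Over 16109 tested genes the correlation with GC content was -0.18. The annotation gives 22 members exonic bases shared with another gene, and of the 28 that share none, 14 were lower and 4 higher. Of the 22 that share some, 11 were lower and 6 higher. Among all tested genes, 30.1% were called in each direction. The largest overlaps are those of POLA2 (2012 bases, same strand), GINS4 (1290), MCM2 (1158), POLD4 (650, same strand), ORC4 (587), GINS3 (558), PRIM1 (527), POLD1 (426, same strand), MCM7 (392) and RFC5 (346). Pseudogenes named after RFC5, RFC3, RPA2, FEN1, DBF4 and POLD2 are annotated too, so reads of these genes could be split. The 3 FUBP1 siRNAs listed by the study were compared with the 3′ UTRs of the members, counting 8-base matches to the guide's seed followed by A. For RNAi#1 the match was found in 2 members, ORC4 and MCM10, and in 4.54% of 19133 genes. For RNAi#2 it was found in RFC1 alone and in 2.54% of genes. For RNAi#3 it was found in GINS2, POLD3 and POLE, all lower, and in 12.5% of genes. The part of such matches in the changes was not tested.

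Genes around the replication machinery were described from 6 lists, and 30.1% of all tested genes were called in each direction. Of 17 E2F, RB and DREAM regulators, 3 were lower (17.6%) and 5 higher (29.4%), with a median log2 fold change of 0.11. LIN52 (log2 fold change -1.12, adjusted p = 5.45e-08) and LIN54 (0.87, adjusted p = 3.01e-08), both subunits of the MuvB core, moved in opposite directions. RBL1, an RB-family protein, was higher at 0.52 (adjusted p = 1.05e-05), and E2F4 was lower at -0.43 (adjusted p = 4.14e-05). Of 12 genes of S-phase CDK and licensing control, 5 were lower (41.7%) and 2 higher (16.7%), with a median of 0.02. The E-type cyclins fell most: CCNE1 stood at 38.5 ± 3.14 CPM in siMock and 11.9 ± 0.551 CPM in siFUBP1 (SD; log2 fold change -1.70, SE 0.105, adjusted p = 3.03e-13), and CCNE2 at 17.4 ± 1.05 and 5.64 ± 1.09 CPM (log2 fold change -1.62, SE 0.146, adjusted p = 4.35e-10). CUL4A and CUL4B, scaffolds of the ubiquitin ligase that removes CDT1 in S phase, were higher at 0.85 and 0.71 (adjusted p = 3.21e-09 and 1.06e-08). Its adaptor DDB1 and its CDT1 receptor DTL were lower, at -0.35 (adjusted p = 5.70e-04) and -0.23 (adjusted p = 0.0155).

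Of 17 genes that fire origins and protect forks, 11 were lower (64.7%) and 2 higher (11.8%), with a median of -0.31. CLSPN (-0.91, adjusted p = 4.71e-08) and TIMELESS (-0.70, adjusted p = 2.25e-08) of the fork protection complex were lower, while TIPIN, the partner of TIMELESS, was higher (0.86, adjusted p = 1.82e-07). RNASEH2A was lower at -0.88 (adjusted p = 0.0260) but at only 1.75 CPM in siMock. Of 10 genes of replication-coupled chromatin, 7 were lower (70%) and 2 higher (20%), with a median of -0.47. HELLS (-0.86, adjusted p = 7.46e-10), TONSL (-0.81, adjusted p = 2.16e-08) and UHRF1 (-0.81, adjusted p = 1.54e-09) were lower, and the histone chaperone ASF1A was higher (1.08, adjusted p = 5.83e-10). Of 6 genes of nucleotide supply, RRM2 (-0.97, adjusted p = 1.33e-10), TYMS (-0.81, adjusted p = 5.85e-08) and DUT (-0.23, adjusted p = 0.0101) were lower (50%) and none was higher. TK1 and RRM1, S-phase genes of the same list, were at -0.02 and 0.04 without a call.

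Of the 20 mitotic genes, 7 were lower (35%) and 6 higher (30%), with a median of 0.06. Both shares are near the 30.1% of all tested genes called in each direction. AURKB (0.83, adjusted p = 2.91e-08) and BIRC5 (0.69, adjusted p = 3.73e-08), partners in the chromosomal passenger complex, were higher, whereas CCNB1 (-0.77, adjusted p = 5.03e-08) and MKI67 (-0.70, adjusted p = 3.94e-06) were lower. All adjusted p-values of these lists come from the same edgeR fit. The lists differ in size and overlap in function, and the difference between lists was not tested.

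**Figure D5:**
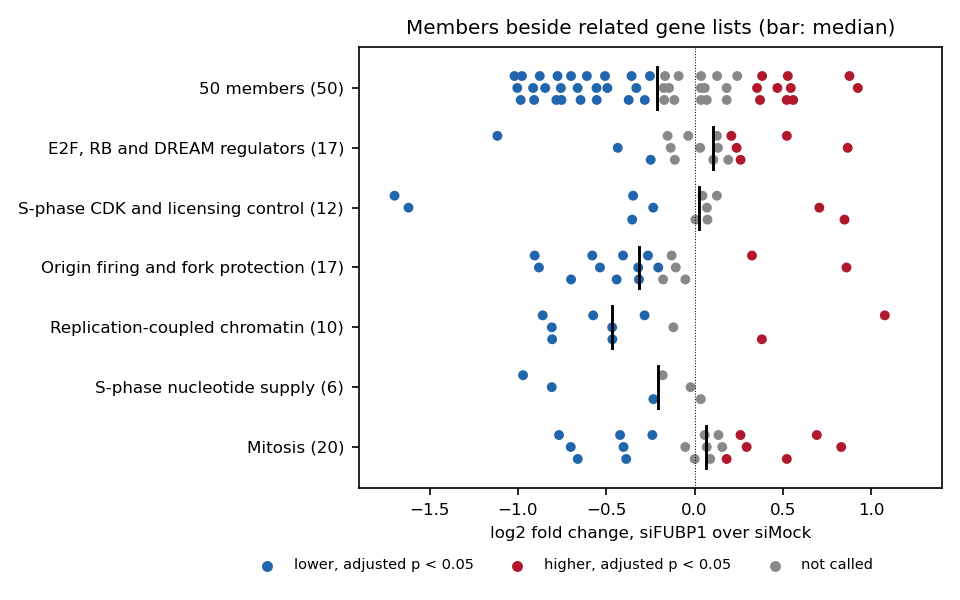
Log2 fold change of siFUBP1 over siMock (x axis) for the 50 members and 6 related gene lists (rows, with the number of genes), each point a gene and each black bar the list's median. The medians run from -0.47 for replication-coupled chromatin to 0.11 for the E2F, RB and DREAM regulators, with the members at -0.21.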

How the data were processed

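RNA of 6 MG63 samples (3 siMock, 3 siFUBP1, grouped by title) was sequenced by the authors from poly(A)-selected libraries. They deposited 1 table of 58735 genes. The deposited counts are whole reads per gene without normalization. The deposited FPKM values were scaled by the authors for gene length and sequencing depth. They do not follow total counts alone. With limma on log2(FPKM + 1) the median log2 fold change of all genes was 0.0072, against 0.0986 with library size alone. The deposited signal columns (group means), log2 fold changes and p-values are the authors' own comparison and were not used. The submitters' processing notes name HISAT2 2.0.5, StringTie 1.3.3b, featureCounts 1.5.0-p3 and DESeq2 1.16.1, without their settings. All 58735 gene identifiers and positions match GENCODE release 29 (GRCh38).

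Counts were fitted with edgeR 4.0.16 in R 4.3.3 (TMM factors 0.959 to 1.05, edgeR's expression filter, robust quasi-likelihood, F test) and adjusted by Benjamini-Hochberg over 16116 genes. CPM values here use library sizes scaled by TMM. Calls were made at adjusted p below 0.05. Replicates of a group differed by more than sampling noise (chi-square per gene 6.92 to 11.6). Members and lists were chosen with earlier results of these data known. Values per sample are given for members called with an absolute log2 fold change above 0.58 and for the most counted member of each role. From each related list up to 4 called genes with the largest change are named. TK1, RRM1, DDB1, DTL, E2F3 and RBBP4 were named after their values were seen. Alternatives were other scalings and filters, DESeq2 1.42.0, limma 3.58.1 on log2(FPKM + 1) and log2(FPKM + 0.1), a correction for GC content and length (loess, span 0.3, fitted on genes averaging 50 counts or more), blocking on the replicate number, and omission of each sample in turn.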

Additional observations from a re-analysis of the deposited data

How the results depend on the processing

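Of the 35 called members, 32 kept their call and direction in each of the 16 alternatives (22 lower, 10 higher), and no called member changed direction. The exceptions were POLA1 (library size alone), POLD1 (GC and length correction) and CHAF1B (6 alternatives). The sizes of kept changes also moved with the GC and length correction. POLE (-0.74), PRIM1 (0.68), E2F1 (-0.49) and E2F2 (-0.65) came nearer to no change, while GMNN (-0.82), PCNA (-0.98) and RFC5 (-1.13) went further from it. Lower calls ranged from 23 to 28 and higher calls from 10 to 14. The lower members past the fold threshold numbered 0 with upper quartile scaling, library size alone and limma on log2(FPKM + 1), 1 without a filter and with limma on log2(FPKM + 0.1), and 0 to 4 with a sample left out. Library size alone gave 1 higher member past it and a members' median of -0.12, while the median of all genes moved to 0.0986. Leaving out samples gave members' medians of -0.29 to -0.19. With limma on log2(FPKM + 1), whose pseudocount shrinks the change of low genes, 462 genes were higher and 588 lower past the fold.

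Members without a call that gained one were RPA1, CDT1, GINS1, RFC1, ORC1 and, after its sign turned, RFC3 on the lower side, and ORC3 (0.22 and 0.28), GINS4 (0.28 and 0.34), POLE4 (0.28) and RFC2 (0.22) on the higher side with upper quartile scaling or library size alone, the last 2 with library size alone. The direction turned only for members that were not called. With the GC and length correction ORC3 was at -0.0045, ORC4 at -0.0157, CDT1 at 0.12, MCM10 at -0.0432, GINS3 at -0.0445, POLD2 at 0.0761 and RFC3 at -0.1953, and with library size alone POLD2 was at 0.0057. With a sample left out, ORC4 ranged from -0.0054 to 0.156, MCM10 from -0.0429 to 0.0947, GINS3 from -0.0145 to 0.139 and RFC3 from -0.0188 to 0.076. The cause was not tested. Samples of the same number had correlations of 0.0284, 0.0549 and 0.249 in their deviations from the group means. Samples of different number had -0.199 to 0.15. These few values do not decide whether the numbers pair the samples, and the main fit did not pair them. With the replicate block, 27 members were lower and 10 higher: the 35 called members remained called, and CDT1 (adjusted p = 0.0386) and RPA1 (adjusted p = 0.0215) were added.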
